A study of Apis mellifera with 24 samples.

Results

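Alpha-glucosidase 2 (AGLU2, transcript NM_001040236.1) was described in the ovaries of 12 honey bee queens. It is 1 gene among the 21596 transcripts of the deposited mRNA table, and it was chosen by its FPKM values in these same libraries, which followed egg-laying. Its own levels are therefore given as a description without a test. The RefSeq table gives this gene the symbol AGLU2 with the synonym Hbg1, and it keeps the symbol Hbg2 for a paralogue (NM_001040259.1, synonym AGLU4). The symbols of that table are used throughout.

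The queens were sisters of *Apis mellifera ligustica* reared from a single source colony, each kept in a nucleus colony of her own behind a queen excluder, and each library came from the ovary of 1 queen. The virgin queens (n = 3) were never inseminated, and the 9 mated queens were instrumentally inseminated with semen of 1 source and quantity. The egg-laying queens (n = 3) were laying when sampled. The egg-laying inhibited queens (n = 3) had been laying and were then confined to a small cage in their hive for 7 days, and the egg-laying recovery queens (n = 3) were caged in the same way, released, and had laid again by sampling on day 8. Queens were sampled when their own treatment ended, so caged queens may have been older, and group and age cannot be told apart. Among mated queens, those not laying were also those still caged at sampling, so caging and the stop in laying cannot be told apart. Egg-laying and virgin queens differed in both insemination and laying, and these cannot be told apart in that comparison. Inhibited queens were inseminated and not laying when sampled, but they differed from virgin queens in earlier laying and in caging as well.

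Alpha-glucosidases split glucose from the end of sugars such as sucrose and maltose. In the honey bee they form a small family of paralogous genes, best known from the digestion of nectar. The family member Hbg3 is the enzyme that workers add to nectar from the hypopharyngeal gland, a gland in the head. Glucose released in the gut is turned mainly into trehalose, the circulating sugar of insects, which cells take up through transporters such as Tret1 and feed into glycolysis. The ovary of a laying queen is a tissue of continuous egg growth, and it lies in the haemolymph next to the fat body, which makes yolk proteins.

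Levels are FPKM values (fragments scaled to transcript length and to the mapped fragments of a library), which can be compared between genes. The number of fragments behind each value is unknown. The sum of all FPKM values was 355905 to 405177 in a virgin library and 521059 to 559542 in a mated library. Germline markers (vas, nanos and aub, 3 of 3 measured) were present in every library, with summed levels of 174 to 283 FPKM in virgin and 394 to 474 FPKM in mated queens.

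AGLU2 was high in the ovaries of queens that laid eggs and low in those of queens that did not. In virgin queens its level was 6.35, 2.12 and 7.36 FPKM. In egg-laying queens it was 34.0, 32.7 and 38.2 FPKM. In egg-laying inhibited queens it was 1.69, 13.9 and 2.46 FPKM, and in egg-laying recovery queens it was 39.2, 28.0 and 21.4 FPKM. All 6 laying queens lay above all 6 queens that did not lay, and the lowest of the former, recovery queen 3, exceeded the highest of the latter, inhibited queen 2, by 1.54 times.

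**Figure D1:**
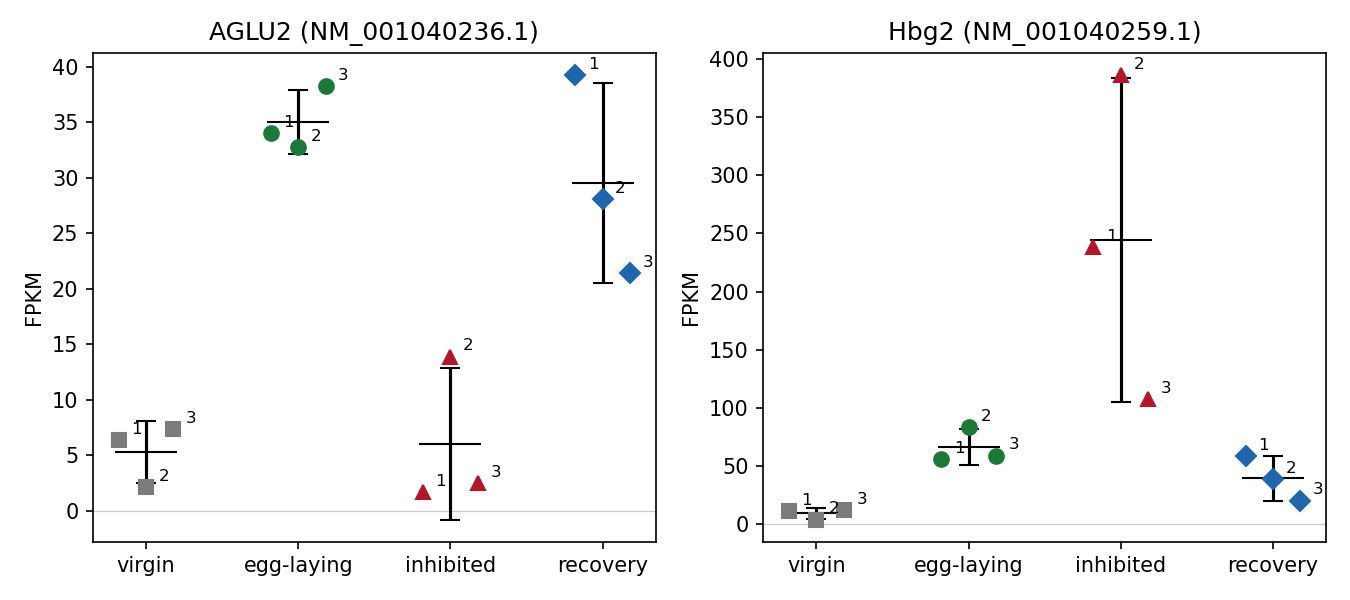
FPKM of AGLU2 (left) and of its paralogue Hbg2 (right) in each queen, with the replicate number beside each point, for 3 queens a group. Horizontal lines are group means and vertical bars are 1 SD. The 6 laying queens sit between 21.4 and 39.2 FPKM of AGLU2, above the 6 others, while Hbg2 is highest in the inhibited queens.

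The group means were 5.28 ± 2.78 FPKM in virgin, 35.0 ± 2.86 in egg-laying, 6.01 ± 6.83 in inhibited and 29.5 ± 9.01 in recovery queens (SD, n = 3 each). Egg-laying queens stood highest, followed by recovery queens, and these neighbours overlapped (ratio of means 0.844, recovery to egg-laying). The lower pair overlapped as well, while 59.8% of tested transcripts did not overlap between these groups, and the order of the pair depended on the summary. The mean of inhibited queens was 1.14 times that of virgin queens, whereas the median was lower in inhibited queens (2.46 against 6.35 FPKM). Between the upper and the lower pair there was no overlap.

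The place of AGLU2 among the transcripts of the ovary moved accordingly. Among the 17924 transcripts with a mean of at least 0.1 FPKM, its level ranked above 37.6% to 56.6% of them in virgin queens, and above 81.6% to 84.4% in egg-laying queens. It ranked above 34.9% to 66.7% in inhibited queens and above 74.6% to 84.9% in recovery queens. These ranks restate the same values, and in them each laying queen was above each queen that did not lay.

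In ovary activation (egg-laying vs. virgin queens), the mean level of AGLU2 was 6.63 times higher in egg-laying queens, a difference of 2.64 in log2(FPKM + 1). The groups did not overlap, but this held for 60.6% of all tested transcripts in this comparison, and limma called 55.6% of them (28.0% upward and 27.5% downward). A difference between these groups was therefore common. Sums of cell type markers separated them too. The germline sum was 174 to 283 FPKM in virgin and 394 to 473 FPKM in egg-laying queens. Of its 3 genes limma called vas, which encodes a germline RNA helicase, as higher in egg-laying queens (1.42 in log2, adjusted p = 0.000114). The others, nanos (0.31, limma, adjusted p = 0.165) and aub (-0.10, limma, adjusted p = 0.881), overlapped between the groups and did not pass. The planned germline markers piwi, Bam, orb, osk and tud are not among the 3. The sum of the muscle markers TpnT, TpnI and myophilin moved against the germline sum, from 251 to 423 FPKM in virgin to 96.8 to 114 FPKM in egg-laying queens, and all 3 were called lower. The part of these markers in the AGLU2 difference was not tested.

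In oviposition inhibition (egg-laying inhibited vs. egg-laying queens), the mean level in egg-laying queens was 5.82 times that in inhibited queens, and AGLU2 differed by -2.80 in log2(FPKM + 1). Here a gap between groups was rarer, since 14.8% of tested transcripts had 3 libraries against 3 without overlap and limma called 0.139%. In oviposition recovery (egg-laying recovery vs. inhibited queens), the mean was 4.92 times higher in recovery queens, a difference of 2.52. The corresponding shares were 24.5% without overlap and 0.658% called. The muscle marker sum was also higher in recovery queens (123 to 134 FPKM) than in inhibited queens (90.4 to 108 FPKM). Limma called 0 of its 3 genes (1 at an unadjusted p under 0.05), and the part of this sum in the AGLU2 difference was not tested. The muscle gene Mlc2 was planned as a marker and is not among the 3. The paper listed Mlc2 as down-regulated in inhibition and, not significantly, up-regulated in recovery. The germline sum overlapped between inhibited queens (404 to 474 FPKM) and both egg-laying and recovery queens (416 to 474 FPKM in the latter). Both comparisons use the same 3 inhibited queens, so they are not independent of each other. In bulk ovary RNA, fewer cells of a type and less RNA per cell cannot be told apart.

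One inhibited queen set the size of these ratios. Inhibited queen 2 held 6.69 times the mean AGLU2 level of the other inhibited queens, and the highest and lowest inhibited queens differed by 8.23 times, against 1.17 times among egg-laying, 1.83 times among recovery and 3.48 times among virgin queens. Without queen 2 the inhibited mean was 2.08 FPKM and the egg-laying mean was 16.9 times higher, and the log2 differences became -3.56 for inhibition and 3.28 for recovery. The ratio of medians, on which queen 2 weighs less, was 13.8 for egg-laying to inhibited queens and 11.4 for recovery to inhibited queens.

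Among all tested transcripts, 218 (1.22%) had the 6 laying libraries above the 6 others without overlap, and 246 (1.37%) had them below. AGLU2 was chosen for this separation, so its place among the 218 only describes its size. Its mean log2 difference between laying and other queens was 2.58, the rank of 3 from the top, where the median of the 218 was 0.57 and the largest was 3.31. The pair above it was XM_006568515.1 (LOC551263) and XM_003249174.2 (LOC410013), for which the tables used here give no gene name.

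The paralogue Hbg2 had another order of levels. Its level was 11.3, 3.74 and 12.2 FPKM in virgin, 56.2, 83.6 and 58.9 in egg-laying, 238, 386 and 108 in inhibited and 58.7, 38.7 and 20.2 in recovery queens. The inhibited queens were the highest and the virgin queens the lowest, each without overlap with any other group, whereas egg-laying and recovery queens overlapped. In the inhibited queens Hbg2 thus stood at its highest, while AGLU2 was below the level of every laying queen.

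Hbg2 was tested with limma, with p-values adjusted by the Benjamini-Hochberg method over all 17924 transcripts. It rose in egg-laying vs. virgin queens by 2.85 on the log2(FPKM + 1) scale (SE 0.51, adjusted p = 0.000538), and it was higher in inhibited than in virgin queens by 4.56 (adjusted p = 1.56e-05). The difference of 1.71 in inhibited vs. egg-laying queens did not pass (adjusted p = 0.378). Nor did that of -2.55 in recovery vs. inhibited queens (adjusted p = 0.0519), which was close to the threshold of 0.05 and fell on its other side in 4 of 22 alternative analyses (adjusted p 0.029 to 0.161 over all of them).

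**Figure D2:**
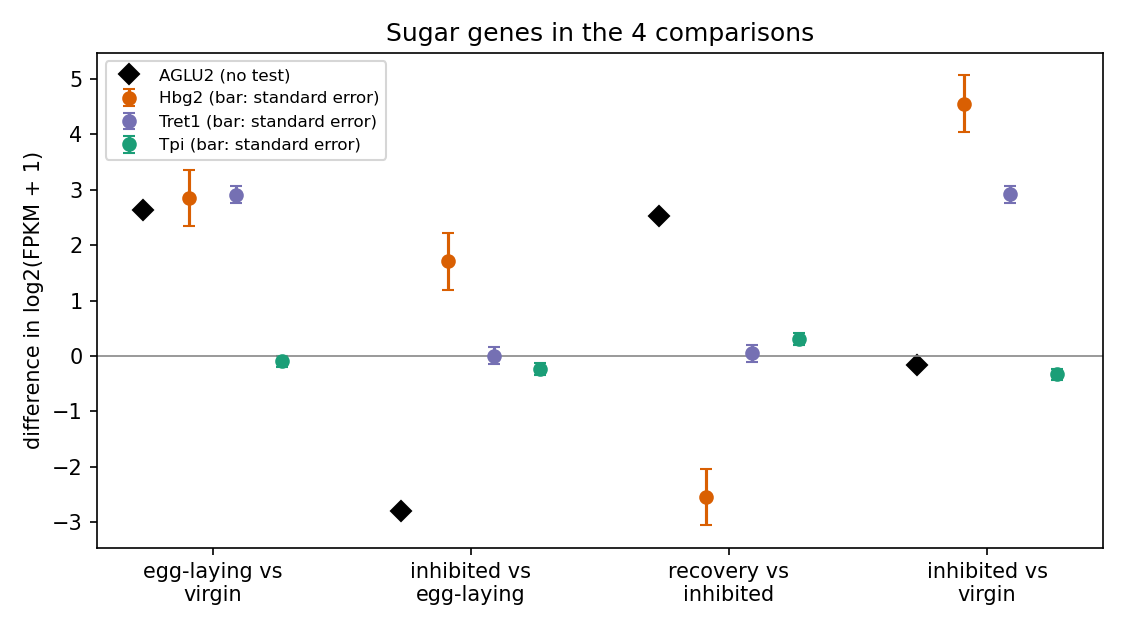
Difference in log2(FPKM + 1) between the first and the second group named, for AGLU2 (black, no test and no error bar) and for Hbg2, Tret1 and Tpi (coloured, bars are the standard error from limma, 12 libraries). Hbg2 and AGLU2 lie close together for egg-laying vs. virgin queens (2.85 and 2.64) and on opposite sides of 0 in inhibition and recovery.

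The balance of the paralogues within a queen does not depend on how a library was scaled. The ratio of AGLU2 to Hbg2 was 0.562, 0.566 and 0.601 in virgin queens and 0.606, 0.391 and 0.648 in egg-laying queens. In inhibited queens it was 0.00708, 0.0360 and 0.0229, and in recovery queens 0.668, 0.725 and 1.06. The ratio was therefore alike in virgin and egg-laying queens (means 0.576 ± 0.0218 and 0.549 ± 0.138, SD, n = 3), although both genes differed several-fold between them. It was far lower in every inhibited queen (mean 0.0220 ± 0.0145), and highest in the recovery queens (0.817 ± 0.211), which lay above all other queens. Summed over AGLU2 and Hbg2, alpha-glucosidase levels averaged 14.4 FPKM in virgin, 101 in egg-laying, 250.0 in inhibited and 68.7 in recovery queens. The groups with low AGLU2 thus held both the highest sum (inhibited) and the lowest (virgin).

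**Figure D3:**
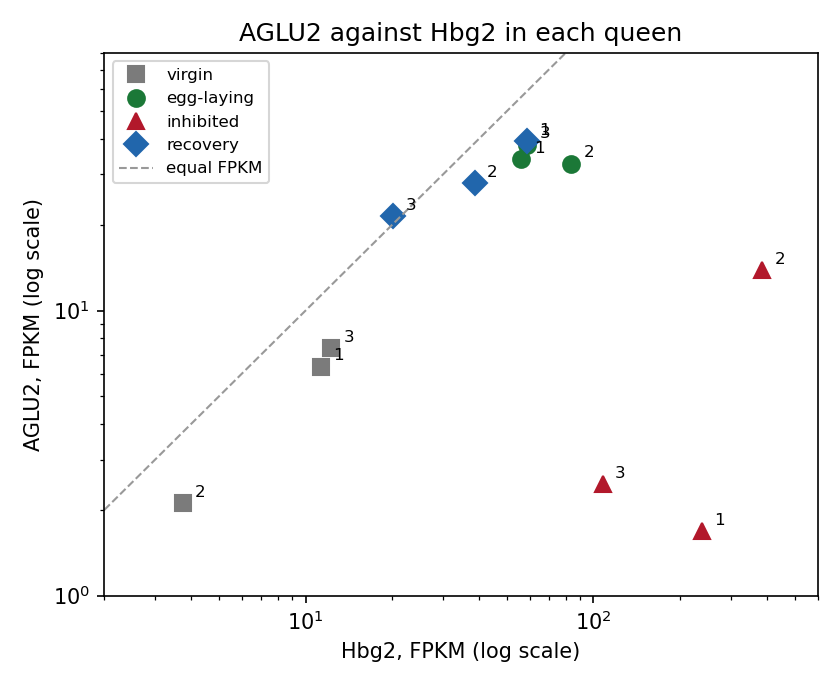
FPKM of AGLU2 against FPKM of Hbg2 on log axes, 1 point a queen with its replicate number, and a dashed line of equal FPKM. The virgin, egg-laying and recovery queens lie along the line at ratios from 0.391 to 1.06, and the 3 inhibited queens lie far below it, at 0.00708 to 0.0360.

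Within groups the 2 genes ranked the queens alike in 2 of 4 groups, the virgin and the recovery queens. Inhibited queen 2 was the highest of its group for both, and virgin queen 2 the lowest of its group for both. Across the 12 libraries the deviations of log2(FPKM + 1) from the group means correlated with a Pearson r of 0.753, and the levels themselves with an r of 0.132 over 12 libraries and -0.560 over the 9 mated libraries. These coefficients describe 12 libraries in 4 groups and were not tested.

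Hbg3 was nearly absent. It was listed at 0 in 8 libraries, and in the other 4 it did not exceed 0.0448 FPKM, so it did not reach the filter and was not tested. The royal jelly protein genes, which mark the hypopharyngeal gland, were also low (sum of Mrjp1 to Mrjp5 and Hbg3 at most 5.56 FPKM in any library).

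Few other genes of sugar use could be found by symbol. Of the 4 listed besides AGLU2 (Hbg2, Hbg3, Tret1 and Tpi), 3 were tested, and limma called 2 higher and 0 lower in egg-laying vs. virgin queens, where the background was 55.6%. It called 0 in inhibition (background 0.139%) and 0 in recovery (background 0.658%), each with 2 at an unadjusted p under 0.05 (Hbg2 and Tpi). In inhibited vs. virgin queens it called 3, 2 upward and 1 downward, where the background was 53.8% (27.5% upward and 26.3% downward). The median differences of the 3 were 2.85, 0.01, 0.05 and 2.92 on the log2(FPKM + 1) scale, against -0.05, -0.01, -0.02 and -0.04 for all tested transcripts.

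Tret1, the transporter that carries trehalose into cells, averaged 14.4 ± 1.24 FPKM in virgin, 117 ± 28.6 in egg-laying, 116 ± 12.9 in inhibited and 119 ± 12.4 in recovery queens (SD, n = 3). Every mated queen was above every virgin queen, and the 3 mated groups overlapped. It rose by 2.91 in egg-laying vs. virgin queens (limma, SE 0.16, adjusted p = 5.73e-08) and differed by 0.01 in inhibition and 0.05 in recovery (limma, SE 0.16 each, adjusted p = 1.00 and 0.930).

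Tpi, the glycolytic enzyme triosephosphate isomerase, averaged 63.4 ± 8.63 FPKM in virgin, 59.0 ± 5.02 in egg-laying, 49.9 ± 2.12 in inhibited and 62.0 ± 4.25 in recovery queens (SD, n = 3). It was lower in inhibited than in virgin queens, by -0.33 on the log2(FPKM + 1) scale (limma, SE 0.10, adjusted p = 0.0161). The call was lost without inhibited replicate 1 (adjusted p = 0.0572). Its differences of -0.24 in inhibition and 0.31 in recovery had the sign of those of AGLU2 and did not pass (limma, adjusted p = 0.638 and 0.195). In egg-laying vs. virgin queens its difference of -0.10 had the opposite sign to that of AGLU2 and did not pass either (limma, adjusted p = 0.442).

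The fat body lies beside the ovary, and its markers were measured because it could be carried over. The summed level of its 6 markers (Vg, Hex70a, HEX70b, Hex70c, Hex110 and Tsf1) ran from 128 to 450 FPKM in virgin, 83.9 to 98.8 in egg-laying, 110 to 153 in inhibited and 71.3 to 101 in recovery queens. Its median was higher in both groups where AGLU2 was low. Vg encodes the yolk precursor vitellogenin, and without it the sums ran from 88.8 to 103, 77.0 to 93.2, 86.4 to 113 and 69.6 to 91.5 FPKM in the same order of groups. In egg-laying vs. virgin queens limma called 4 of the 6 markers lower and 1 higher, where the background was 27.5% lower and 28.0% higher. Vg was lower by -4.11 (limma, adjusted p = 0.000343), whereas HEX70b, a storage protein gene, was higher by 1.03 (limma, adjusted p = 0.000314) and was also higher in inhibited vs. virgin queens by 1.44 (adjusted p = 2.55e-05). Limma called 0 of the 6 in inhibition (3 at an unadjusted p under 0.05) and 0 in recovery (1 at an unadjusted p under 0.05). The background in these comparisons was only 0.139% and 0.658%. For Vg, the differences of 2.17 in inhibition and -2.37 in recovery did not pass (limma, adjusted p = 0.414 and 0.150). The paper, with its count model, called more mRNAs in both comparisons than limma did here. It listed Vg as up-regulated in inhibition and down-regulated in recovery. It gave the same directions for apolipophorins, a planned fat body marker that is not among the 6.

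Between groups, Vg was higher where AGLU2 was low, whereas their deviations from the group means had a Pearson r of 0.607 over 12 libraries, which is a description. Inhibited queen 2, with the highest AGLU2 of its group, also had the highest Vg (54.0 FPKM against 21.8 and 23.6). Virgin queen 2, with the lowest AGLU2, had the lowest Vg of the virgin queens (39.1 against 125 and 347 FPKM). PPO, the haemocyte marker measured, lay between 1.03 and 7.74 FPKM. The part of these cell types in the AGLU2 levels was not tested.

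In the RefSeq gene order (assembly Amel_HAv3.1, which is not the build of the files), Hbg3 is the gene next to AGLU2 and Hbg2 is not near them. Among the nearest genes of that order on both sides, 9 besides Hbg3 were tested. Limma called 3 higher and 5 lower in egg-laying vs. virgin queens (background 55.6%). It called 0 in inhibition (background 0.139%) and 0 in recovery (background 0.658%), with 1 each at an unadjusted p under 0.05. These counts use 1 transcript a gene. The neighbour LOC413005 has 3 transcripts and was read from XM_396456.5, in which inhibited and egg-laying queens overlapped. Another, XM_006560023.1, is among the 218 transcripts with all laying queens above all others (mean log2 difference 0.95). Its means were 3.99 FPKM in virgin, 13.2 in egg-laying, 9.12 in inhibited and 12.3 in recovery queens. Reads that paralogues or overlapping genes share could not be checked in FPKM values.

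The transcripts whose pattern was most like that of AGLU2 were ranked by the Pearson correlation of log2(FPKM + 1), using 1 transcript a gene with a mean of at least 1 FPKM. This ranking follows the choice of AGLU2 for its pattern and carries no test. Over all 12 libraries the 6 most alike of 10667 were XM_006571343.1 (r = 0.902), XM_006570280.1 (0.896), XM_006559477.1 (0.867), XM_006565775.1 (0.867), XM_003251948.1 (0.867) and XM_003249174.2 (0.866). In 4 of the 6, all laying queens lay above all others, which held for 1.22% of all tested transcripts. Likeness to a gene chosen for this separation favours it, so the count is a description. Over the 9 mated libraries they were XM_006570280.1 (r = 0.971), XM_006571296.1 (0.969), XM_006566030.1 (0.965), XM_006560436.1 (0.957), XM_001120442.3 (0.955) and XM_006565646.1 (0.952), of which 3 had this separation. Only XM_006570280.1 was in both sets, and the tables used here name none of these genes.

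**Figure D4:**
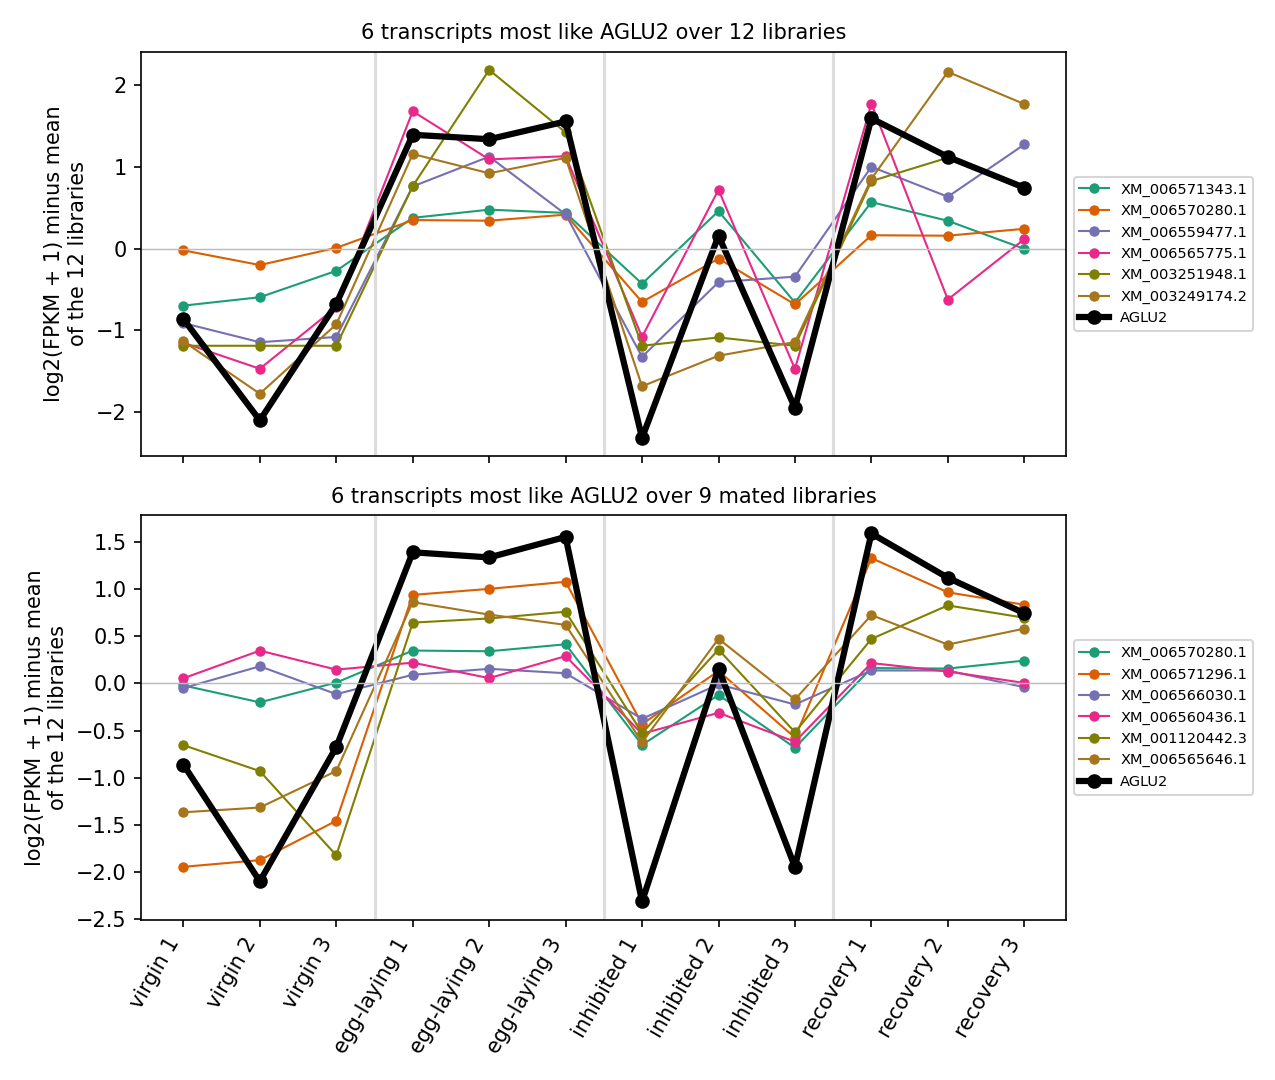
Level of AGLU2 (black) and of the 6 transcripts most like it (coloured) in each library, as log2(FPKM + 1) minus the mean of the 12 libraries, ranked over 12 libraries (top) and over the 9 mated libraries (bottom). In inhibited queens 1 and 3 AGLU2 lies below the 6 transcripts of either panel, and all 6 transcripts of the lower panel have their highest inhibited level in queen 2.

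These transcripts differed in size of change and in the virgin queens. XM_006570280.1 followed AGLU2 closely on a small scale, with 6.16 to 7.28 FPKM in virgin, 9.42 to 9.97 in egg-laying, 4.13 to 6.56 in inhibited and 8.18 to 8.73 in recovery queens. XM_006571296.1 had levels like those of AGLU2 in laying queens, 37.0 to 40.9 FPKM in egg-laying and 34.4 to 48.9 in recovery queens, and was at 12.3 to 20.8 in inhibited and 4.15 to 6.23 in virgin queens. XM_003251948.1 was listed at 0 in all 3 virgin libraries, reached at most 0.0732 FPKM in inhibited queens, and was at 2.87 to 9.35 in egg-laying and 2.74 to 3.92 in recovery queens. XM_006560436.1, which was ranked over mated queens alone, did not separate virgin from egg-laying queens (1.89 to 2.54 and 1.89 to 2.40 FPKM).

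The raised level in inhibited queen 2 was shared by many of these transcripts. It was the highest of the 3 inhibited queens in 6 of the 6 transcripts ranked over mated libraries and in 4 of the 6 ranked over 12. For XM_006571296.1 the inhibited queens were at 13.7, 20.8 and 12.3 FPKM, and for XM_006570280.1 at 4.24, 6.56 and 4.13 FPKM. Since the rank was computed with that library, these values are a description of the likeness and not separate evidence for it.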

How the data were processed

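Ovary mRNA libraries of 12 queens were depleted of rRNA, prepared with a directional kit and sequenced as paired ends. The authors aligned the reads to Amel_4.5 with TopHat v2.0.9, and they deposited FPKM values per transcript from Cufflinks. The count model of the study could not be used on FPKM, so limma 3.58.1 (lmFit, eBayes with trend, R 4.3.3) was used here on log2(FPKM + 1) for transcripts whose mean reached 0.1 FPKM (17924). All 12 libraries entered 1 fit with a mean per group, without covariates. Tests were two-sided, with Benjamini-Hochberg adjustment per comparison and calls under 0.05. The fit was tested on simulated data. Descriptions used Python 3.11.15. The depth of each library is unknown, and 3 queens a group limit the precision.

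The gene, the lists and the tests were chosen with earlier results of these data known. Named genes are AGLU2, its paralogues, the listed sugar genes with a symbol, marker genes, and the 6 transcripts most like AGLU2 over 12 and over 9 libraries. XM_006568515.1 and the neighbour transcript XM_006560023.1 were named after their values were seen. Each gene was read from its transcript with the highest mean FPKM. Gene IDs were paired with 12543 of 21596 transcripts (58.1%), 12008 from the RefSeq table and 535 from a supplementary list of the paper. The RefSeq table holds symbols without product names, so amylases, trehalase, most glycolytic enzymes and midgut markers were not analysed here. The small RNA libraries were not used here.

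Alternatives were pseudocounts of 0.1 and 0.01, a filter at 1 FPKM or none, FPKM summed per gene, rescaling to the same sum or by the median of ratios, quantile normalization, a fit on the compared groups alone, a replicate block, the Spearman correlation for likeness, and leaving out each library.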

Additional observations from a re-analysis of the deposited data

How the results depend on the processing

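AGLU2 kept its direction in egg-laying vs. virgin queens (2.20 to 2.91 in log2 over 18 alternatives), in inhibition (-3.56 to -2.32) and in recovery (2.05 to 3.28). In inhibited vs. virgin queens the difference changed sign with the library left out (-0.92 to 0.32), and the groups overlapped. The count of sugar genes called in recovery vs. inhibited queens went from 0 to 1 (Hbg2) with a mean FPKM of at least 1 (adjusted p = 0.0409) and with FPKM summed per gene (0.0470), and ranged from 0 to 1 when single libraries were left out, being 1 without virgin replicate 2 (0.0290) or inhibited replicate 3 (0.0436). The cause was not tested. Of the 6 transcripts most like AGLU2, 1 (12 libraries) and 0 (9 mated libraries) were among the first 6 by the Spearman correlation, and 1 to 5 and 2 to 5 when single libraries were left out, so membership of these sets changed with the libraries and the measure. Rescaling to the same sum of FPKM moved the median of all transcripts from -0.05 to -0.36 in egg-laying vs. virgin queens and from -0.04 to -0.34 in inhibited vs. virgin queens, and the share of calls that were higher from 50.45% to 27.8% and from 51.1% to 28.2%. In recovery that share went from 61.9% to 74.05%. Tpi passed in egg-laying vs. virgin queens after this rescaling (-0.59) and after quantile normalization (-0.65). Counts of called transcripts ranged from 9 to 35 in inhibition (25 as reported) and from 19 to 230 in recovery (118 as reported).

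With the replicate number as a block, the sugar gene counts stayed at 2, 0, 0 and 3, and Hbg2 had an adjusted p of 0.0716 in recovery (limma). The block called 14 transcripts in inhibition and 91 in recovery. Deviations of same-numbered queens correlated between -0.0991 and 0.145, so the numbers were not read as pairs. Limits were the unknown depth of each library, 3 queens a group, and values that sum to less in virgin libraries.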

Other observations

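Of the 7 Tret1 transcripts, XM_006570577.1, chosen after its values were seen, differed from the main one. It was at 24.7, 15.1 and 22.8 FPKM in virgin, 28.9, 18.9 and 27.6 in egg-laying, 16.7, 17.4 and 17.4 in inhibited and 43.0, 35.0 and 35.3 in recovery queens. The recovery queens lay above all others and the inhibited queens below all laying queens. It was not tested, and isoform levels from Cufflinks share reads with the other transcripts of the gene. XM_006570580.1 followed the main transcript instead, with means of 13.4 FPKM in virgin, 104 in egg-laying, 114 in inhibited and 97.4 in recovery queens. The remaining Tret1 transcripts averaged at most 3.55 FPKM in any group. Of these, XM_006570576.1 and XM_006570579.1 were higher in every virgin queen than in any mated queen. XM_006570578.1 also had its highest mean in virgin queens (0.55 FPKM), where it overlapped with mated queens. PDHB, a subunit of pyruvate dehydrogenase, which passes the product of glycolysis to the mitochondrial cycle, was at 66.0 to 74.3 FPKM in virgin, 141 to 155 in egg-laying, 144 to 147 in inhibited and 131 to 143 in recovery queens. PDHB thus set virgin apart from mated queens as the main Tret1 transcript did. Such a gap was common, since 60.6% of tested transcripts had it between virgin and egg-laying queens and 59.8% between virgin and inhibited queens. InR-2, Akhr, Gpdh, Gfat2 and Argk, picked in the same way, did not set virgin apart from all mated queens. ILP-2, an insulin-like peptide gene, overlapped between all groups (8.76 to 15.7 FPKM over the 12 libraries). These genes were picked from the symbols when values were first viewed, and no test was made.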
